A study of Mus musculus with 6 samples.

Results

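The genes described here are p53 itself, its regulators of the MDM family and targets of p53 grouped here for growth control: Trp53, Mdm2, Mdm4, Ccng1, Sesn1, Sesn2, Zmat3, Phlda3, Trp53inp1 and Aen. Of these, Trp53inp1 and Aen are also known for promoting p53-dependent apoptosis. The genes were chosen by gene symbol, without Cdkn1a, and all 10 were found among the 23238 symbols of the count files. The 6 libraries were made from stable lines of mouse embryonic stem cells, called Niwa in the labels, with the background 129/Ola. The EWS-OCT4 line carried EWS OCT4A-GFP, in which the Ewing sarcoma protein EWS is fused to isoform A of OCT-4 and to GFP (3 libraries). The EGFP line carried EGFP alone and served as its control (3 libraries). Both lines grew in embryonic stem cell medium with LIF, and both received doxycycline at 1 µg/ml, which lowers endogenous OCT-4, so no library shows either line with its own OCT-4 left in place. The labels do not say whether a line was 1 clone or whether its libraries came from separate cultures, so p-values cover only the variation among the libraries at hand, and that variation may be technical.

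p53 is a transcription factor that is made continuously and destroyed continuously. MDM2, a ubiquitin ligase, marks it for degradation, and MDM4, a relative without strong ligase activity of its own, binds and blocks its activation domain. Mdm2 is itself a target of p53, which closes a feedback loop. Targets with a role in growth arrest or growth control include a cyclin-like protein, the sestrins that restrain mTORC1, an inhibitor of AKT, and proteins that bind or cut nucleic acids. Embryonic stem cells are known for holding abundant p53 while they divide quickly. RNA counts do not measure p53 protein, its modification or its binding.

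Total counts ran from 10978025 to 12281444 in the EWS-OCT4 libraries and from 13239383 to 14935887 in the EGFP libraries, so 1 count stood for 0.0670 to 0.0911 CPM, the usual unit of counts scaled to the size of a library. Levels are given as CPM scaled by TMM, a correction for differences in RNA composition, and are compared between lines for 1 gene at a time. The kit named in the labels is sold for reading transcript 3′ ends, but counts per symbol do not show whether these are 3′ tags or reads from whole transcripts, so a difference in level between genes has no meaning here. In each line the library numbered 3 stood apart: chi-square per degree of freedom between replicates was 26.5 and 26.9 against the others in the EWS-OCT4 line, where the others differed from each other by 3.78. In the EGFP line it was 19.7 and 20.8, against 3.62. The 10 embryonic stem cell markers summed to 5192 to 5752 CPM in the EWS-OCT4 libraries and 421 to 540 CPM in the EGFP libraries, and all 10 were higher in the EWS-OCT4 line. Among them Pou5f1, the gene of OCT-4, stood at only 1.66, 1.94 and 3.02 CPM in the EWS-OCT4 libraries and 0.372, 0.911 and 0.650 CPM in the EGFP libraries. Whether reads from the introduced OCT4A were counted under this symbol is not given in the sources used here. The 10 trophoblast markers summed to 254 to 282 CPM in the EWS-OCT4 libraries and 4809 to 5397 CPM in the EGFP libraries, and all 10 were lower in the EWS-OCT4 line, with Plac1 at 0 there. The EGFP libraries thus carried trophoblast markers at high levels although the labels name embryonic stem cells. In bulk samples such as these, fewer cells of a type and less RNA per cell cannot be told apart, and the part of cell type in the members' values was not tested.

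Of the 10 genes, 8 passed the test between the lines (edgeR quasi-likelihood test, Benjamini-Hochberg adjusted p under 0.05). That test called 67.4% of all 13467 tested genes, so a call is common in this comparison. Trp53, Mdm4 and Zmat3 were higher in the EWS-OCT4 line (3 genes, against 33.3% of all tested genes). Mdm2, Ccng1, Sesn1, Phlda3 and Trp53inp1 were lower (5 genes, against 34.1%). Sesn2 and Aen did not pass. The change was called and at least 2-fold for 4 genes, Trp53, Mdm4, Sesn1 and Phlda3, beside 45.4% of all tested genes. The median log2 fold change of the 10 genes was -0.34, beside -0.00 for all tested genes, and their median size without regard to sign was 0.85, beside 0.93. Libraries of the lines did not overlap for 8 of the 10, beside 72.7% of all tested genes. The 10 genes therefore moved in both directions and by sizes close to those of tested genes at large.

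**Figure D1:**
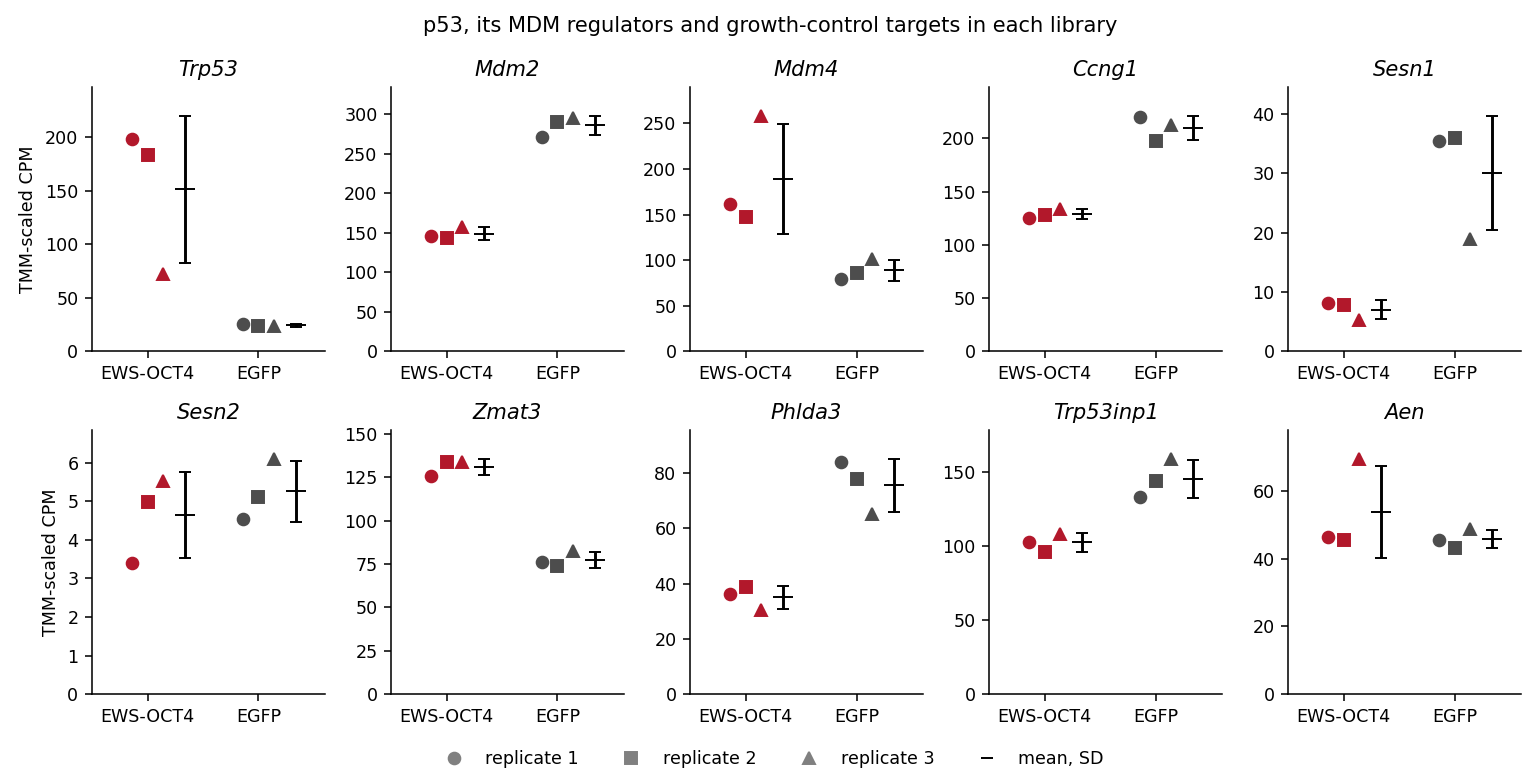
Level of each of the 10 genes in each library, in TMM-scaled CPM on an axis that starts at 0 and differs between panels. Red points are EWS-OCT4 libraries and grey points EGFP libraries, the marker shape gives the replicate number, and the black line with caps is the mean with SD over 3 libraries. Trp53, Mdm4 and Zmat3 lie higher in every EWS-OCT4 library, Mdm2, Ccng1, Sesn1, Phlda3 and Trp53inp1 lie lower, and the libraries overlap for Sesn2 and Aen.

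The promoters of these genes were searched for the p53 consensus half-site, the sequence of 10 letters that p53 binds as a spaced pair, because most of the genes are known for regulation by p53. The search used exact matches in the 250 bases before each transcript start. The half-site pattern is its own reverse complement, so a search of 1 strand covers both. RefSeq windows (GRCm38.p6) were found for 8 of the 10 genes, Zmat3 and Trp53inp1 not among them. A match was present for Trp53, Mdm2, Ccng1, Sesn1 and Aen, which makes 5 of the 8. Mdm4, Sesn2 and Phlda3 had none. Among all 27025 genes with a window, 8.20% held a match. The matches fell on genes that were higher (Trp53), lower (Mdm2, Ccng1, Sesn1) and not called (Aen) in the EWS-OCT4 line, and a match is a run of letters and not evidence of binding. The well-known p53 elements of Mdm2 lie in its first intron and outside the window. The stretches that hold the matches in the 4 called genes are given 5′ to 3′ on the strand of the gene with the half-site in capitals, and that of Aen, which lies in an annotated exon, is given with its nearest bases alone.
Trp53, chr11:69580109-69580358, plus strand: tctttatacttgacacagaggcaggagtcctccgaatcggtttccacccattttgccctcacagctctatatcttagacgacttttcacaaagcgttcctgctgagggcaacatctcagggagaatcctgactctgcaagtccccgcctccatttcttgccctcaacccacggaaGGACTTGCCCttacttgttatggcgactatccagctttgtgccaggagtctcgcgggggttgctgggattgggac
Mdm2, chr10:117710759-117711008, minus strand: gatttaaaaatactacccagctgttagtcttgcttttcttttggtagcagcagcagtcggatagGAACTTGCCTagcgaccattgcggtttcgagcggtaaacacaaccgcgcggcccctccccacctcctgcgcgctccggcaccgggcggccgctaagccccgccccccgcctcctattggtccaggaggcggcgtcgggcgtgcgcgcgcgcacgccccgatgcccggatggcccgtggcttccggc
Ccng1, chr11:40755312-40755536, minus strand: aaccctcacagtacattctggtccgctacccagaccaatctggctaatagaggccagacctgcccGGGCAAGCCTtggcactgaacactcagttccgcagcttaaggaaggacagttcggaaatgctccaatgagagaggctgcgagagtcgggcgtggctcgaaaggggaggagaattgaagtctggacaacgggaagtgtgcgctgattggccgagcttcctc
Sesn1, second annotated start, chr10:41887189-41887438, plus strand: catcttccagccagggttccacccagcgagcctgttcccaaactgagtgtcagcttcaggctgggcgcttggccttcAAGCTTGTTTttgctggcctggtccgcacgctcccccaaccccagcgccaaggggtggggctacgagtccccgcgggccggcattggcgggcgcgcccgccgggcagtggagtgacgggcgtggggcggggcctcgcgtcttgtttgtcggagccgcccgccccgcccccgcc
Aen, second annotated start, chr7:78895927-78895956, plus strand: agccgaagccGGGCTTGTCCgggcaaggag
The half-site began 75 bases before the start in Trp53, 186 in Mdm2, 185 in Ccng1, 173 in Sesn1 and 121 in Aen. No window held a second exact match. Partner half-sites with mismatches were not searched for, so the search does not show that any of these half-sites stands alone.

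Trp53, which encodes p53 and lies at chr11:69580359-69591873 on the plus strand (GENCODE M21 on GRCm38), had the largest change of the 10. Its level was 198.6, 183.3 and 71.9 CPM in the EWS-OCT4 libraries, against 25.3, 23.4 and 23.1 CPM in the EGFP libraries. Every EWS-OCT4 library was above every EGFP library, but the EWS-OCT4 library numbered 3 lay well below the other two. The means were 151 ± 69.2 CPM in the EWS-OCT4 line and 24.0 ± 1.20 CPM in the EGFP line (SD, n = 3 each). The log2 fold change was 2.66 (SE 0.32, 95% interval 1.93 to 3.38, edgeR adjusted p = 5.00e-05), and 15.7% of tested genes had a larger change in size. Without the EWS-OCT4 library numbered 3 it was 3.00. A processed pseudogene, Trp53-ps, is annotated on chromosome 17 and has no line of its own in the files, so whether reads were shared with it is uncertain. Counts per symbol do not separate the transcripts of the gene.

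The 3 tested genes whose pattern over the 6 libraries lay nearest to that of Trp53 were Nfkb1, Fgfbp3 and Ube2d1. They were taken from all 13467 tested genes. The root mean square distance of their centred log2 CPM from that of Trp53 was 0.13, 0.15 and 0.17. Nfkb1, an NF-kappa-B subunit, had 10.5, 10.9 and 3.94 CPM in the EWS-OCT4 libraries and 1.64, 1.54 and 1.36 CPM in the EGFP libraries. Like Trp53, it was lowest among EWS-OCT4 libraries in the one numbered 3, a likeness that follows from the way it was chosen. Of the other 9 genes described here, Zmat3 and Mdm4 lay nearest to Trp53, at 1.01 and 1.04, and Sesn1 lay farthest, at 2.33.

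The MDM regulators moved in opposite directions. Mdm2, the ubiquitin ligase (chr10:117688875-117710758, minus strand), had 145.6, 143.3 and 157.8 CPM in the EWS-OCT4 libraries, against 271.6, 290.7 and 295.4 CPM in the EGFP libraries. The libraries of each line lay close together, and those of the EWS-OCT4 line were about 1.92-fold lower. The means were 149 ± 7.79 CPM in the EWS-OCT4 line and 286 ± 12.6 CPM in the EGFP line, a log2 fold change of -0.94 (SE 0.11, 95% interval -1.19 to -0.70, edgeR adjusted p = 3.46e-05). Mdm4, which blocks the activation domain of p53 (chr1:132959484-133030561, minus strand), had 161.2, 147.8 and 258.8 CPM in the EWS-OCT4 libraries, against 79.3, 85.8 and 101.3 CPM in the EGFP libraries. Its highest value in either line was in the library numbered 3. The means were 189 ± 60.6 CPM in the EWS-OCT4 line and 88.8 ± 11.3 CPM in the EGFP line, a log2 fold change of 1.09 (SE 0.21, 95% interval 0.63 to 1.55, edgeR adjusted p = 0.000974). Without the EWS-OCT4 library numbered 3 the Mdm4 log2 fold change was 0.80. The processed pseudogene Mdm4-ps, on chromosome X, has no line in the files either. The same holds for Gm29257, a processed pseudogene that overlaps Mdm4 on the opposite strand.

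Ratios of counts within a library need no scaling between libraries. Their level has no meaning, since how each gene was captured is not known, and only the change between lines is described. The ratio of Mdm2 to Mdm4 counts was 0.903, 0.969 and 0.610 in the EWS-OCT4 libraries, against 3.43, 3.39 and 2.92 in the EGFP libraries. The log2 difference was -2.00. The ratio of Mdm2 to Trp53 counts was 0.733, 0.782 and 2.19 in the EWS-OCT4 libraries, against 10.7, 12.4 and 12.8 in the EGFP libraries, a log2 difference of -3.47. The EWS-OCT4 library numbered 3 stood nearest to the EGFP libraries in this ratio, being the one with the lowest Trp53 level. The ratio of Sesn1 to Sesn2 counts was 2.38, 1.56 and 0.939 in the EWS-OCT4 libraries, against 7.80, 7.03 and 3.11 in the EGFP libraries, a log2 difference of -1.87. For both ratios with Mdm2 the separation of the lines follows from the levels given above, where Mdm2 was lower and Mdm4 and Trp53 were higher in every EWS-OCT4 library, so it is a description and no further result. For Sesn1 over Sesn2 the 2-sided exact permutation test gave p = 0.1, the smallest that 3 against 3 libraries allow, and 0.1 after Benjamini-Hochberg adjustment over the 3 ratios computed, so that difference did not pass.

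**Figure D2:**
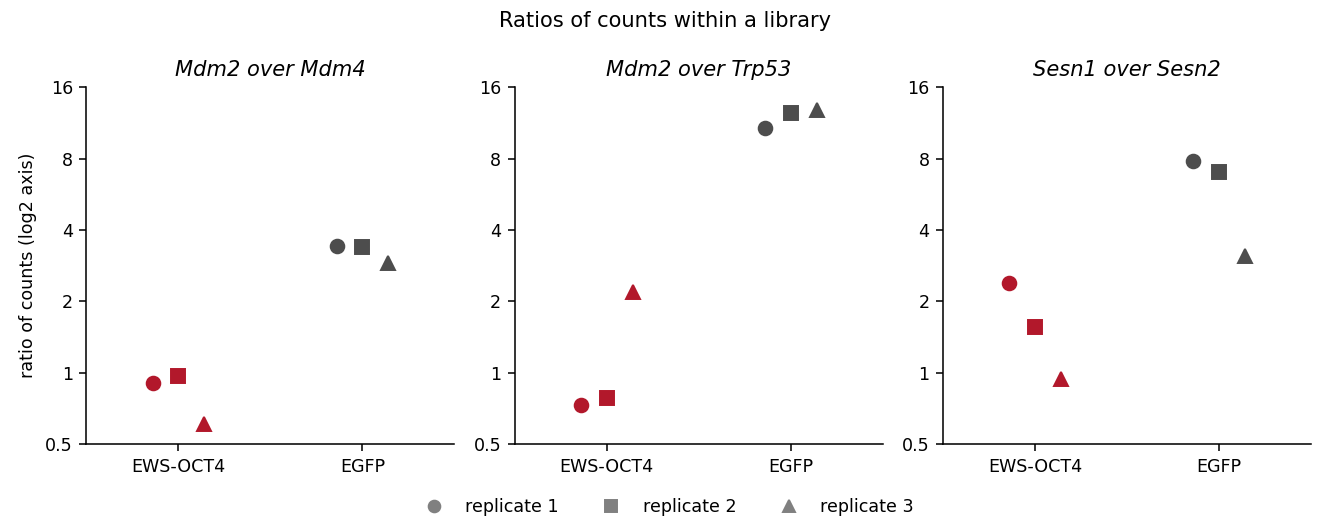
Ratio of the counts of 2 genes within each library, on a log2 axis: Mdm2 over Mdm4, Mdm2 over Trp53, and Sesn1 over Sesn2. Red points are EWS-OCT4 libraries and grey points EGFP libraries, with the marker shape giving the replicate number. The EWS-OCT4 libraries lie below the EGFP libraries in all 3 panels, with Mdm2 over Mdm4 at 0.610 to 0.969 in EWS-OCT4 and 2.92 to 3.43 in EGFP libraries.

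The sestrins restrain mTORC1 and help to reduce peroxides. Sesn1 passed the test and Sesn2 did not. The exact test on the ratio of their counts cannot decide whether their changes differ, since its p cannot fall below 0.1 with 3 against 3 libraries. Sesn1 (chr10:41809935-41908424, plus strand) had 8.11, 7.75 and 5.20 CPM in the EWS-OCT4 libraries, against 35.5, 35.9 and 19.0 CPM in the EGFP libraries. All EWS-OCT4 libraries were lower, and the library numbered 3 was lowest in each line. The means were 7.02 ± 1.59 CPM in the EWS-OCT4 line and 30.1 ± 9.66 CPM in the EGFP line, a log2 fold change of -2.10 (SE 0.29, 95% interval -2.74 to -1.46, edgeR adjusted p = 0.000109). Sesn1 had the largest fall of the 10 genes, and 21.5% of all tested genes changed by more. Sesn2, a sestrin that senses leucine (chr4:132492032-132510501, minus strand), had 3.41, 4.98 and 5.54 CPM in the EWS-OCT4 libraries, against 4.54, 5.11 and 6.11 CPM in the EGFP libraries. These values overlapped. They rest on 37 to 66 counts in the EWS-OCT4 libraries and 61 to 94 counts in the EGFP libraries, the fewest of the 10 genes in total. The log2 fold change was -0.18 (SE 0.30, edgeR adjusted p = 0.620), with a 95% interval of -0.86 to 0.50 that leaves room for changes in either direction. On the same strand, Gm12981 overlaps Sesn2 and 9930024M15Rik overlaps Sesn1. Neither is among the counted symbols, so whether their reads were counted under the sestrins is uncertain.

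Ccng1 encodes cyclin G1, which recruits phosphatase PP2A to MDM2 (chr11:40748552-40755311, minus strand). It had 124.8, 128.4 and 133.9 CPM in the EWS-OCT4 libraries, against 220.1, 197.3 and 212.2 CPM in the EGFP libraries. All EWS-OCT4 libraries were lower, with little spread within a line. The means were 129 ± 4.63 CPM in the EWS-OCT4 line and 210 ± 11.6 CPM in the EGFP line, a log2 fold change of -0.70 (SE 0.11, edgeR adjusted p = 0.000273). Against a change of at least 1.5-fold, which asks for more than a difference from 0, Ccng1 did not pass (edgeR glmTreat adjusted p = 0.104).

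Phlda3 encodes a pleckstrin-homology protein that competes with AKT for membrane lipids (chr1:135766119-135769136, plus strand). Its level was 36.1, 38.7 and 30.4 CPM in the EWS-OCT4 libraries, against 84.1, 77.7 and 65.2 CPM in the EGFP libraries. The libraries did not overlap, and the one numbered 3 was lowest in each line. The means were 35.0 ± 4.25 CPM in the EWS-OCT4 line and 75.7 ± 9.60 CPM in the EGFP line, a log2 fold change of -1.11 (SE 0.16, 95% interval -1.46 to -0.76, edgeR adjusted p = 0.000132). Trp53inp1, which encodes a nuclear protein that assists p53 and also acts in autophagy (chr4:11156431-11174379, plus strand), had 102.9, 96.2 and 108.5 CPM in the EWS-OCT4 libraries, against 133.5, 144.2 and 159.4 CPM in the EGFP libraries. It was lower in all EWS-OCT4 libraries, by the smallest size of the 8 called genes. The means were 103 ± 6.16 CPM in the EWS-OCT4 line and 146 ± 13.0 CPM in the EGFP line, a log2 fold change of -0.51 (SE 0.12, edgeR adjusted p = 0.00406), and it did not pass against a 1.5-fold change (adjusted p = 0.643, edgeR glmTreat).

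Zmat3 and Aen encode proteins that bind or cut nucleic acids, and Zmat3 alone of them passed. Zmat3 encodes a zinc finger protein that binds RNA and acts on its stability and splicing (chr3:32334792-32366014, minus strand). It had 125.9, 134.0 and 133.6 CPM in the EWS-OCT4 libraries, against 76.0, 73.7 and 82.5 CPM in the EGFP libraries. The libraries of each line lay close together and did not overlap. The means were 131 ± 4.61 CPM in the EWS-OCT4 line and 77.4 ± 4.56 CPM in the EGFP line, a log2 fold change of 0.76 (SE 0.12, edgeR adjusted p = 0.000230). Against a 1.5-fold change its adjusted p was 0.0511 (edgeR glmTreat). Aen, an exonuclease of the nucleolus and nucleus (chr7:78895854-78911209, plus strand), had 46.4, 45.7 and 69.7 CPM in the EWS-OCT4 libraries, against 45.5, 43.4 and 48.8 CPM in the EGFP libraries. These overlapped, and the EWS-OCT4 library numbered 3 alone was clearly higher than the rest. The log2 fold change was 0.23 (SE 0.18, 95% interval -0.17 to 0.64, edgeR adjusted p = 0.277), and 0.01 without that library.

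**Figure D3:**
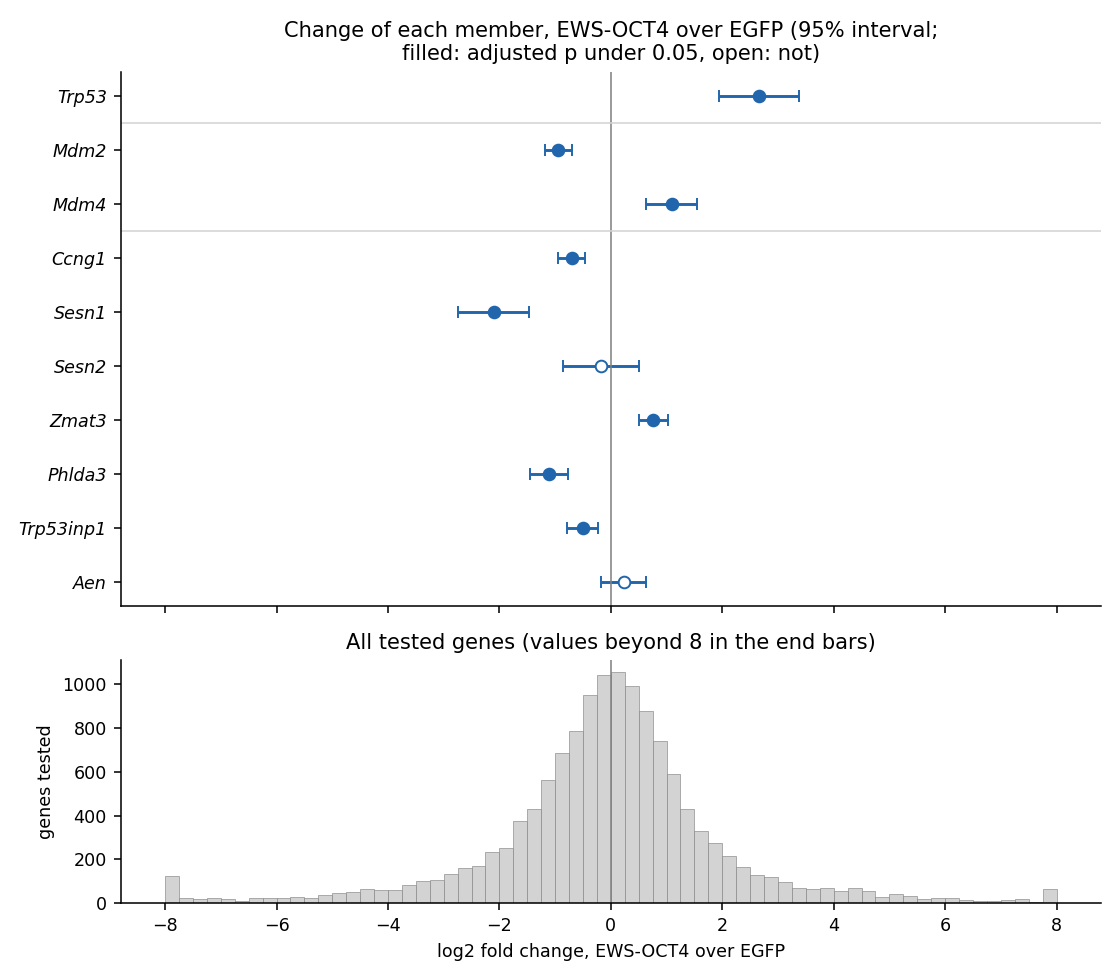
Upper panel: log2 fold change of each of the 10 genes, EWS-OCT4 over EGFP, with its 95% interval, where filled points passed an adjusted p of 0.05 and open points did not. Lower panel: the same quantity for all 13467 tested genes, as the number of genes per bar. Trp53 at 2.66 and Sesn1 at -2.10 are the extremes of the 10 genes, and the others lie between -1.11 and 1.09.

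The libraries numbered 3 moved the 10 genes by unequal amounts, though the sign was the same in both lines for each of them. In the EWS-OCT4 line, log2 CPM in that library differed from the mean of the other two by -1.40 for Trp53, -0.56 for Sesn1, 0.74 for Mdm4 and 0.59 for Aen. In the EGFP line the same difference was -0.07 for Trp53, -0.89 for Sesn1, 0.30 for Mdm4 and 0.13 for Aen. Phlda3 and Sesn2 deviated by nearly the same amount in both lines, by -0.30 in the EWS-OCT4 and -0.31 in the EGFP line for Phlda3, and by 0.38 in the EWS-OCT4 and 0.31 in the EGFP line for Sesn2. For Ccng1, Mdm2, Zmat3 and Trp53inp1 it was 0.20 or less in size in both lines. With the libraries numbered 1 and 2 alone, the log2 fold change was 2.99 for Trp53, 0.92 for Mdm4 and -2.15 for Sesn1, and the same count of 8 genes passed.

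Other p53 targets in growth arrest and feedback went in both directions. All 12 genes of this list were tested, of which 3 were higher, 6 were lower and 3 did not pass. Beside them, 33.3% of all tested genes were higher and 34.1% were lower. The median log2 fold change of the list was -0.72. Cdkn1a, the cyclin-dependent kinase inhibitor p21 and the best known arrest target, averaged 99.0 ± 8.24 CPM in the EWS-OCT4 line and 311 ± 35.8 CPM in the EGFP line, a log2 fold change of -1.65 (SE 0.13, edgeR adjusted p = 2.64e-06). Sfn, the 14-3-3 sigma protein, which is also abundant in epithelia, averaged 38.3 ± 8.05 CPM in the EWS-OCT4 line and 247 ± 32.0 CPM in the EGFP line. Plk2, a polo-like kinase, averaged 6.61 ± 1.95 CPM in the EWS-OCT4 line and 31.7 ± 4.51 CPM in the EGFP line. Gdf15, a secreted stress cytokine, went the other way, at 36.1 ± 4.06 CPM in the EWS-OCT4 line and 4.12 ± 0.906 CPM in the EGFP line, a log2 fold change of 3.13. The arrest and feedback list was therefore mixed, as the 10 genes were.

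Repair and metabolic targets showed no prevailing direction. Of 10 tested, 2 were higher, 3 were lower and 5 did not pass, with a median log2 fold change of -0.19. Shares over all tested genes were 33.3% higher and 34.1% lower. Gls2, a glutaminase, averaged 32.4 ± 4.71 CPM in the EWS-OCT4 line and 10.5 ± 1.16 CPM in the EGFP line. Polk, a translesion polymerase, averaged 18.5 ± 2.77 CPM in the EWS-OCT4 line and 56.0 ± 1.99 CPM in the EGFP line. Rrm2b, a ribonucleotide reductase subunit, averaged 4.10 ± 0.739 CPM in the EWS-OCT4 line and 8.60 ± 1.76 CPM in the EGFP line. Among cell death targets, 8 of 10 were tested, without Fas and Pidd1, and all 8 passed, beside 67.4% of all tested genes. Of these, 5 were higher and 3 lower, with a median of 0.56. Against a 1.5-fold change 4 passed (edgeR glmTreat), of which 2 were higher. Pmaip1, the BH3 protein NOXA, averaged 42.7 ± 8.22 CPM in the EWS-OCT4 line and 13.9 ± 1.76 CPM in the EGFP line. Perp, a desmosomal membrane protein, averaged 22.4 ± 1.93 CPM in the EWS-OCT4 line and 71.4 ± 11.2 CPM in the EGFP line, and the death receptor gene Tnfrsf10b averaged 21.2 ± 2.81 CPM in the EWS-OCT4 line and 64.9 ± 8.93 CPM in the EGFP line. Both the death and the arrest targets thus included genes of either direction.

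Genes whose products act on p53 upstream, such as kinases, MDM2 inhibitors and deubiquitinases, were counted next. Of 20 tested, 13 were higher, 2 were lower and 5 did not pass, with a median log2 fold change of 0.73. Among all tested genes 33.3% were higher and 34.1% were lower. Cdkn2a, whose locus encodes p16INK4a and the MDM2 inhibitor p19ARF, averaged 128 ± 25.1 CPM in the EWS-OCT4 line and 5.32 ± 1.91 CPM in the EGFP line, a log2 fold change of 4.60 (SE 0.26, edgeR adjusted p = 3.14e-07). Counts per symbol do not tell its products apart. Chek2, a checkpoint kinase, averaged 42.7 ± 3.01 CPM in the EWS-OCT4 line and 12.6 ± 2.68 CPM in the EGFP line. Atm, the kinase that signals double-strand breaks, averaged 77.2 ± 21.5 CPM in the EWS-OCT4 line and 26.9 ± 5.43 CPM in the EGFP line. The count of lower genes was 1 without EWS-OCT4 library 1 or 2 or without EGFP library 3. It was also 1 with upper-quartile scaling and against a 1.5-fold change. The list was not split into genes that activate and genes that restrain p53, so its counts give no direction for p53 activity. Whether these RNA levels bear on p53 activity was not tested.

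**Figure D4:**
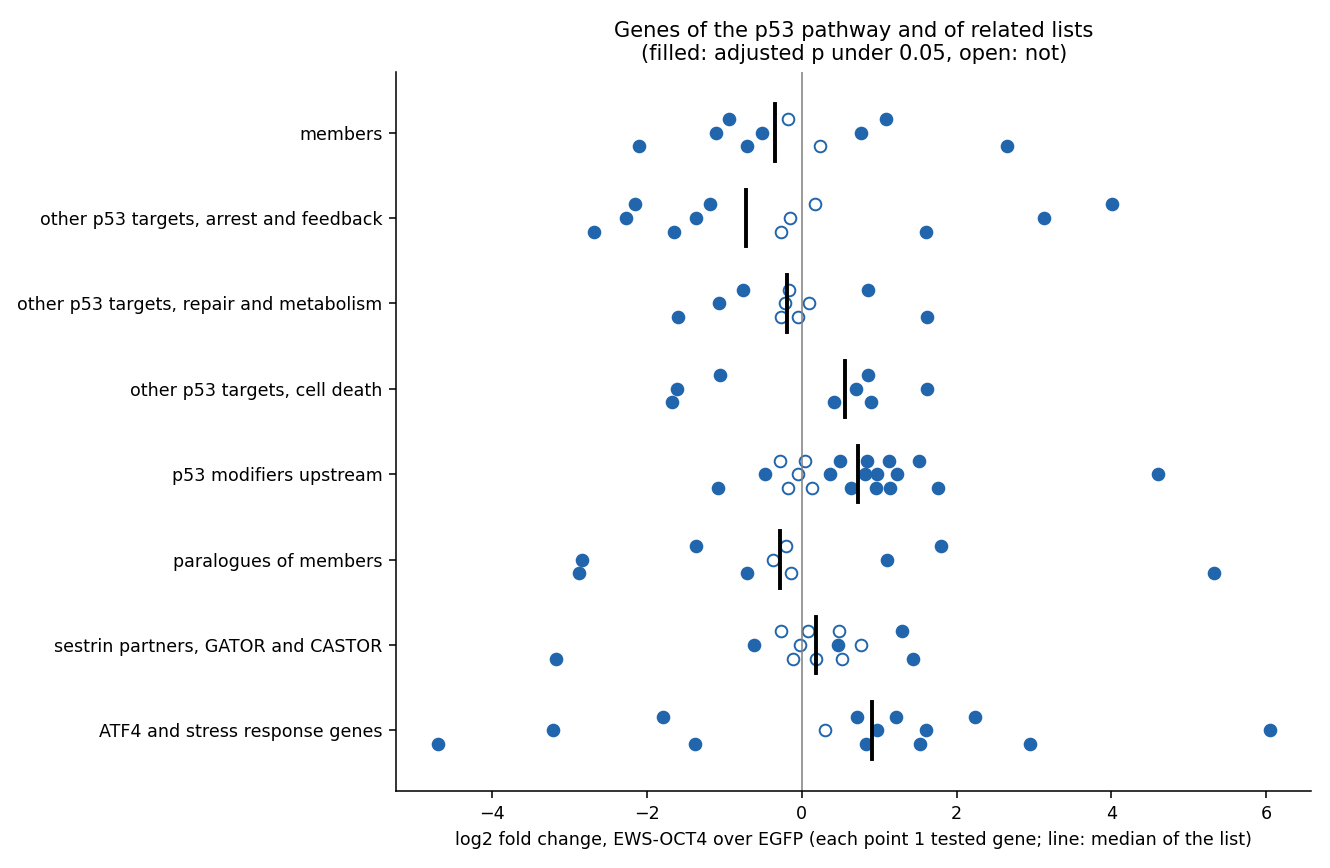
Log2 fold change, EWS-OCT4 over EGFP, of each tested gene of the 10 described here and of related lists, where filled points passed an adjusted p of 0.05 and open points did not, and the black line is the median of a list. The median lies at -0.34 for the 10 genes, at -0.72 for other arrest and feedback targets and at 0.73 for genes that act on p53.

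Paralogues of the 10 genes also went in both directions. Of 10 tested, 3 were higher, 4 were lower and 3 did not pass (Trp63 was not tested), with a median log2 fold change of -0.28. Shares over all tested genes were 33.3% higher and 34.1% lower. Sesn3, the remaining sestrin, averaged 9.02 ± 2.62 CPM in the EWS-OCT4 line and 4.19 ± 0.274 CPM in the EGFP line, a log2 fold change of 1.10 (SE 0.29, edgeR adjusted p = 0.00728). The sestrins therefore included 1 gene that was lower, 1 that was higher and 1 that did not pass. Phlda2, an imprinted relative of Phlda3 known for its role in placental growth, averaged 64.3 ± 13.1 CPM in the EWS-OCT4 line and 470 ± 84.9 CPM in the EGFP line. Isg20, an exonuclease related to Aen, averaged 2.71 ± 2.46 CPM in the EWS-OCT4 line and 19.6 ± 1.54 CPM in the EGFP line, a log2 fold change of -2.83 that was -3.91 without the EWS-OCT4 library numbered 3.

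Sestrins act on mTORC1 through the GATOR complexes, and CASTOR proteins sense arginine at the same step. Of 13 such genes tested, 3 were higher, 2 were lower and 8 did not pass, with a median log2 fold change of 0.18. Shares over all tested genes were 33.3% higher and 34.1% lower. Castor1 averaged 3.88 ± 0.718 CPM in the EWS-OCT4 line and 35.1 ± 2.67 CPM in the EGFP line, a log2 fold change of -3.18 (SE 0.20, edgeR adjusted p = 5.51e-07). Wdr59, a GATOR2 subunit, averaged 29.0 ± 5.37 CPM in the EWS-OCT4 line and 10.7 ± 0.482 CPM in the EGFP line. Itfg2, a KICSTOR subunit, averaged 12.01 ± 1.01 CPM in the EWS-OCT4 line and 4.87 ± 1.06 CPM in the EGFP line. The count of lower genes was 1 without EWS-OCT4 library 1 or 2 or without EGFP library 1 or 3. It was also 1 with upper-quartile scaling, no filter or a mean of at least 10 CPM. The same held against a 1.5-fold change, with a replicate block and with libraries 1 and 2 alone. The count of higher genes was 5 with upper-quartile scaling and with libraries 1 and 2 alone. In all, 3 genes were called without EWS-OCT4 library 2 or EGFP library 1, with a mean of at least 10 CPM, and against a 1.5-fold change.

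Sesn2 is also known as a target of the stress factor ATF4, whose other targets were counted beside it. Of 14 ATF4 and stress response genes tested, 9 were higher, 4 were lower and 1 did not pass, with a median log2 fold change of 0.90. Among all tested genes 33.3% were higher and 34.1% were lower. Chac1, a glutathione-degrading enzyme, had 132, 142 and 158 counts in the EWS-OCT4 libraries, against 1, 4 and 3 counts in the EGFP libraries. Atf3 averaged 1.15 ± 0.451 CPM in the EWS-OCT4 line and 29.7 ± 7.40 CPM in the EGFP line, and Cebpb averaged 9.33 ± 5.49 CPM in the EWS-OCT4 line and 85.7 ± 27.3 CPM in the EGFP line. Sesn2, in contrast, did not pass in either direction at its low counts.

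Markers of primitive endoderm and trophoblast giant cells summed to less in the EWS-OCT4 libraries. The fibroblast sum was higher there, with most of it from Thy1. Primitive endoderm markers summed to 5.54 to 6.63 CPM in the EWS-OCT4 libraries and 104 to 123 CPM in the EGFP libraries, with 1 higher and 3 lower of the 4 tested of 7. Dab2, an endocytic adaptor, averaged 1.53 ± 0.672 CPM in the EWS-OCT4 line and 79.4 ± 6.19 CPM in the EGFP line, so it made up most of the EGFP sum. Gata6, a transcription factor, averaged 1.07 ± 0.653 CPM in the EWS-OCT4 line and 31.2 ± 5.33 CPM in the EGFP line. The 1 higher marker was Gata4, at 2.08 ± 0.213 CPM in the EWS-OCT4 line and 0.143 ± 0.149 CPM in the EGFP line. Fibroblast or feeder markers summed to 24.9 to 32.8 CPM in the EWS-OCT4 libraries and 14.9 to 17.3 CPM in the EGFP libraries. Of the 6 tested of 8, 2 were higher, 1 was lower and 3, all collagen genes, were not called. Thy1 averaged 17.9 ± 1.45 CPM in the EWS-OCT4 line and 0.636 ± 0.489 CPM in the EGFP line. Postn was lower, at 0 in the EWS-OCT4 line and 9.15 ± 0.845 CPM in the EGFP line. The sum therefore does not speak for the list as a whole. The fibroblast count higher was 1 without EWS-OCT4 library 2 or EGFP library 1, and the primitive endoderm count higher was 2 without EWS-OCT4 library 3 or any 1 EGFP library. Trophoblast giant cell markers summed to 0 to 0.185 CPM in the EWS-OCT4 libraries and 5.33 to 48.6 CPM in the EGFP libraries, and the 1 tested marker was lower. Of these 5 markers, 4 were at 0 in every EWS-OCT4 library and 1 was at 0 in every EGFP library. Without EWS-OCT4 library 1 or 2 or without EGFP library 3, 3 of these markers were called lower, and without EWS-OCT4 library 3 it was 2. The part of these cell types in the values of p53 and its targets was not tested.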

How the data were processed

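RNA counts of 6 libraries were analysed, 3 per line, grouped by their titles. Per the labels' protocols, libraries were made with a Lexogen Quant-Seq kit; per the submitters' processing notes, Bowtie2, edgeR and the build mm10 were used, without versions or roles. Not given in the sources used here: the counter, its annotation and its handling of strand. The authors deposited whole-number counts per gene symbol, with no scaling found in them. Counts of the 35 symbols that appeared more than once (79 of 23282 lines) were summed, and each of the 10 genes had 1 line per library. Cop1, Castor1 and Castor2 were matched through RefSeq synonyms.

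TMM scaling in edgeR 4.0.16 (R 4.3.3) gave factors of 0.971 to 1.03. Counts were filtered with filterByExpr (minimum count 10, minimum total 15), which left 13467 symbols tested and 9771 not. A robust quasi-likelihood F test compared the lines over the whole table, 2-sided, with Benjamini-Hochberg adjustment at 0.05. Variation beyond counting error was 19.3% (biological coefficient of variation). Each SE is the log2 fold change divided by the square root of F. The members and lists were chosen with earlier results of these data known. Named besides the 10 genes are Cdkn1a, of each list the up to 3 called genes with the largest change and a mean of at least 5 CPM, and the 3 genes nearest to Trp53. Most marker genes that this rule names are given only through their lists' sums and counts. Some marker genes outside the rule are named as well. A pseudocount of 0.05 CPM was used for the nearest genes, chosen after values with 0.5 CPM had been seen. Rn45s, a ribosomal RNA gene, took 7.36 to 10.5% of counts in EWS-OCT4 and 5.85 to 6.44% in EGFP libraries.

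On data simulated 5 times from these libraries, for 13229 to 13268 genes, the test recovered 65.3% of 2-fold and 94.5% of 4-fold changes (100 genes each), with 5.20% false calls and 0 of the wrong sign. In that simulation few genes changed, unlike in the data. Alternatives were other scalings and filters, DESeq2 1.42.0, limma-voom 3.58.1, a test against a 1.5-fold change, a replicate block, leaving out each library, the libraries numbered 1 and 2 alone, and leaving out Rn45s, 17 in all.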

Additional observations from a re-analysis of the deposited data

How the results depend on the processing

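The direction of each of the 8 called genes held under all 17 alternatives. The count of 8 called (3 higher, 5 lower) held under 16 of them. Against a 1.5-fold change (glmTreat) 5 of the 10 genes passed, 2 higher and 3 lower, as Ccng1 (adjusted p = 0.104), Zmat3 (0.0511) and Trp53inp1 (0.643) no longer did, by construction of that test. Leaving out each library in turn, calls over all genes ranged from 8122 to 9385, and the log2 fold change from 2.42 to 3.00 for Trp53, 0.80 to 1.24 for Mdm4, -2.35 to -1.92 for Sesn1, -0.32 to 0.00 for Sesn2 and 0.01 to 0.34 for Aen. Same-numbered libraries deviated together with r = 0.05, 0.06 and 0.16, not over 0.1 in every pair, so the numbers were not taken to pair them; with a replicate block 8968 genes were called, and 8 of the 10 (3 higher, 5 lower), and not every library correlated best with its own number. Requiring a mean of at least 10 CPM left 8918 genes with 6335 called and Sesn2 untested. Upper-quartile scaling moved the median of all genes to 0.16, and all 8 calls kept their direction there. Counts called in related lists moved by over 1.5 times in 53 instances and held in 559. The changes named with the lists above are only some of these instances. At 37 to 94 counts, Sesn2 is the gene for which depth limits the precision most.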
